A study of Mus musculus with 9 samples.

Results

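The glucocorticoid response genes examined here were the 10 transcripts Fkbp5, Sgk1, Tsc22d3, Per1, Zbtb16, Ddit4, Mt1, Mt2, Cdkn1a and Nr3c1. Their rows were found by gene symbol among the 53465 genes listed for whole mouse brain, and each was listed 1 time in the count and FPKM tables. The members, and the gene lists read beside them, were chosen with earlier results of these data known. All 10 had enough reads to be tested. The brains came from male C57BL/6 mice that were 7 weeks old when the study began, with 3 mice in each of 3 groups. The control group (CON) consisted of normal mice given saline. Untreated diabetic neuropathic pain mice (DNP) ate a diet with 60% fat over 4 weeks, then received streptozotocin, a toxin of insulin-producing cells, at 50 mg/kg by intraperitoneal injection on each of 7 days after 6 h without food, and then saline. Baclofen-treated mice (BAC) had the same diet and streptozotocin and then the GABA-B receptor agonist baclofen at 8 mg/kg intraperitoneally on each of 7 days. Diabetes was accepted at a fasting glucose of 16.7 mmol/L or more, and only mice with lowered pain thresholds were enrolled. Effects of the diet, the toxin, the daily fasting and diabetes cannot be told apart in DNP versus CON. Whether CON mice were fasted is not given in the sources used here.

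Glucocorticoids, chiefly corticosterone in mice, are released by the adrenal gland under stress and with the daily rhythm. They bind the glucocorticoid receptor, encoded by Nr3c1, which is held ready in the cytoplasm by heat shock proteins and then moves to the nucleus, binds response elements in DNA and raises or lowers transcription of nearby genes. In brain, Sgk1, Fkbp5, Tsc22d3, Per1, Zbtb16, Ddit4, Mt1, Mt2 and Cdkn1a are widely used as readouts of this activity, although several of them also answer to the clock, metals, hypoxia or DNA damage. Fkbp5 encodes a co-chaperone that lowers the receptor's affinity for its hormone and so closes a feedback loop.

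Between 13107382 and 16008129 reads were counted on genes per library, and levels are given as FPKM, which scales them for gene length and library total. The libraries within a group differed in their levels of brain region markers. The summed level of 8 cerebellum markers ran from 8.78 to 952 FPKM and was highest in CON replicate 2 and BAC replicate 1. The summed level of 8 caudal hindbrain markers, mostly Hox genes, was 57.1 FPKM in DNP replicate 1, 107 in BAC replicate 1 and 98.2 in BAC replicate 3, against at most 3.57 in the other 6 libraries, and 7 of the 8 had no more than 3 counts in any CON library. Choroid plexus marker sums ran from 7.74 FPKM in BAC replicate 2 to 1116 in DNP replicate 3, and striatum marker sums from 28.6 in DNP replicate 1 to 299.9 in BAC replicate 2. Neuron markers summed to between 578 and 803 FPKM in every library. Against CON, all 8 oligodendrocyte markers and all 5 blood markers were higher in DNP at an unadjusted, or nominal, p under 0.05, and in BAC 6 of 8 and 5 of 5 were. Of all tested genes, 5.71% were higher in DNP and 4.46% in BAC. At the same threshold 5 of 7 meninges markers were lower in DNP than in CON, where 5.46% of all genes were. In such bulk tissue, fewer cells of a type and less RNA per cell cannot be told apart. Results are therefore also given without the 3 libraries rich in caudal hindbrain markers. Cerebellum sums in the remaining libraries were 18.4, 952 and 154 FPKM in CON, 8.78 and 10.9 in DNP and 9.49 in BAC. Group and cerebellum content therefore cannot be told apart in that setting, and it leaves 1 BAC library. A further setting adds cerebellum and caudal hindbrain marker scores, the mean log2 deviations of the markers, as covariates. The caudal hindbrain score was -2.94 to -1.86 in CON, against 4.74 in DNP replicate 1 and 6.26 and 6.27 in BAC replicates 1 and 3. No CON library had such a score, so group and regional content cannot be fully told apart there either. Neither setting accounts for choroid plexus or striatum content.

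The start regions of the genes are shown first, because Sgk1, Mt1 and Mt2 are the members on which the comparisons turn. RefSeq promoter windows (GRCm38.p6, 250 bases before to 50 bases after an annotated start) were found for 8 of the 10 genes, 17 windows in all, and were searched on both strands. The full glucocorticoid response element, searched as AGAACA, any 3 bases and TGTTCT, occurred in 3 of all 32851 promoter windows, or 0.00913%, and 1 of those 3 belonged to Sgk1. It lay in the window of the fifth of 6 annotated Sgk1 starts, inside an intron of the longer Sgk1 transcripts and ahead of the first exon of a shorter one. Its stretch of 150 bases, chr10:21993640-21993789, is given 5′ to 3′ on the plus strand with the element in capitals.
Sgk1: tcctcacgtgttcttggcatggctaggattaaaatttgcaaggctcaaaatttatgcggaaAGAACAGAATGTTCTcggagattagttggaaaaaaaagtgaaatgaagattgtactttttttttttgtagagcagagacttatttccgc
The single arm TGTTCT, which the full element also contains, was present in 19% of all windows. It occurred in 3 of the 6 Sgk1 windows and in 1 of the Tsc22d3 windows, and in none of the windows of the other 6 genes.

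The core of the metal response element, searched as TGCACNC or TGCGCNC, is the site of the zinc-sensing factor MTF1 that drives metallothionein genes. One or more cores occurred in 25.7% of all windows, 3 or more in 1.97% and 4 or more in 0.517%. The Mt1 window held 3 and the Mt2 window held 4. Both genes lie side by side on the plus strand, and their stretches have the cores in capitals, or their reverse complement where the core is on the other strand. The Mt1 stretch is chr8:94178889-94179088, the bases just after the annotated start are chr8:94179089-94179118, and the Mt2 stretch is chr8:94172388-94172607. The Mt2 stretch ends ahead of 1 of the 4 cores, which lies on the minus strand at position 5 from the annotated start.
Mt1 before the start: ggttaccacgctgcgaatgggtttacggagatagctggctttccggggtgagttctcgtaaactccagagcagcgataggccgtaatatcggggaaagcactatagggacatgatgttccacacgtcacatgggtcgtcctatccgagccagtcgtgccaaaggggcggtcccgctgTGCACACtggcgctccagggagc
Mt1 after the start: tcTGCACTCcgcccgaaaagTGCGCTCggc
Mt2 before the start: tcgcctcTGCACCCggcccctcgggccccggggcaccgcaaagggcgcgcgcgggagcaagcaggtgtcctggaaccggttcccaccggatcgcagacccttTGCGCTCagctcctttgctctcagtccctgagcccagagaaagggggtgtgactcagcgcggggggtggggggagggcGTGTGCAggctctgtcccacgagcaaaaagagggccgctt
The E-box CACGTG, bound by the clock factors, was in 1 window each of Fkbp5, Sgk1 and Per1, against 7.15% of all windows. The cyclic AMP response element TGACGTCA, present in 1.79% of all windows, was in none of the 17. These are matches of letters in a short window and were not measured as binding.

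By mean level over the 9 libraries, the metallothioneins led, with 84.63 FPKM for Mt1 and 79.7 FPKM for Mt2. Ddit4 (25.98), Per1 (14.96), Sgk1 (11.8) and Tsc22d3 (8.97) followed, and Cdkn1a (5.45), Zbtb16 (4.85), Nr3c1 (4.71) and Fkbp5 (2.57) were lowest. Neighbours in this order overlapped: Mt1 exceeded Mt2 in 6 of 9 libraries, Per1 exceeded Sgk1 in 6, and Cdkn1a exceeded Zbtb16 in 6. Levels between genes depend on the length used. The length behind the deposited FPKM was 2.18 times the annotated exon length for Nr3c1 and 1.82 times for Mt1, and per annotated exon length Sgk1 (24.6) moved above Per1 (22.0) and Nr3c1 (10.3) moved to the 7th place.

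**Figure D1:**
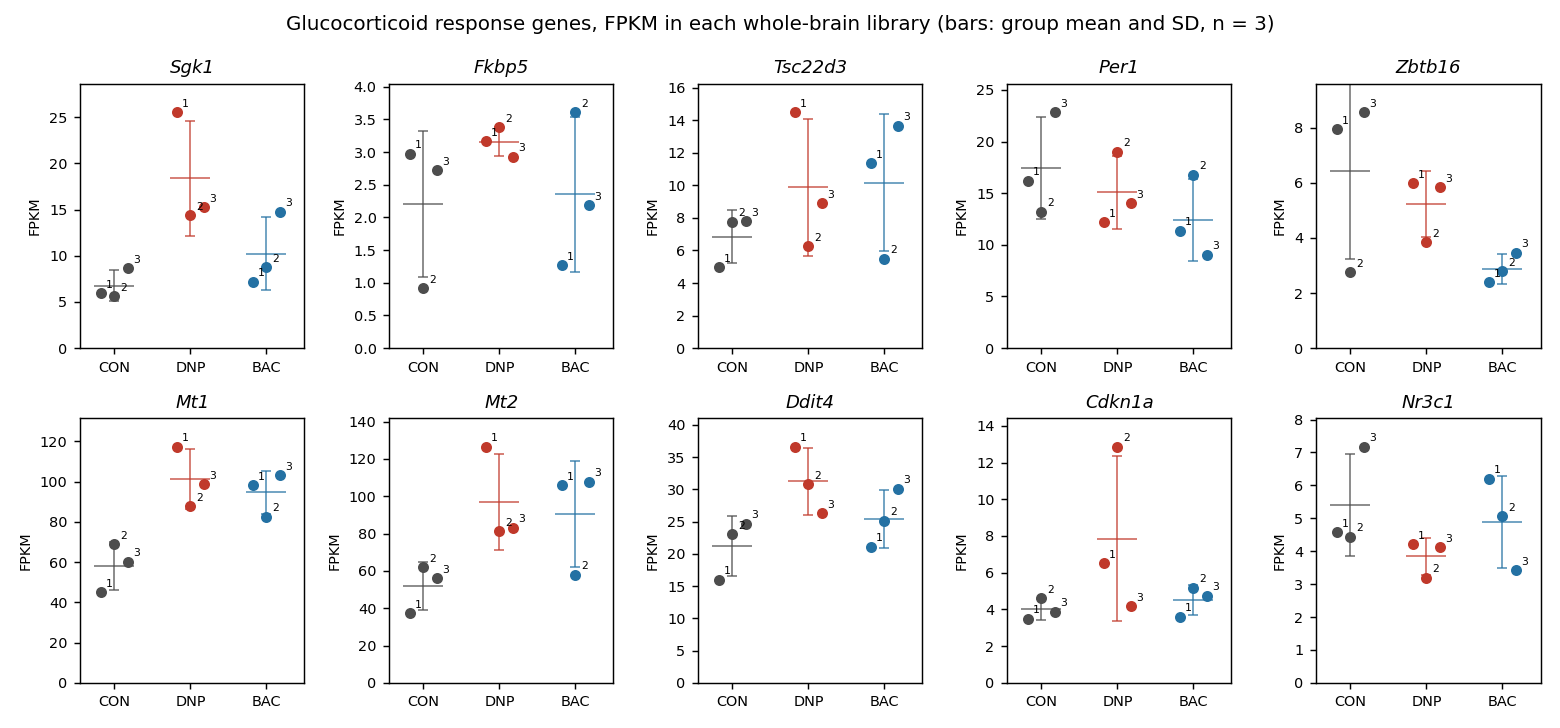
FPKM (y axis, from 0) of each of the 10 genes in the 3 CON, 3 DNP and 3 BAC libraries, with replicate numbers beside the points and bars for the group mean and SD (n = 3). Sgk1, Mt1, Mt2 and Ddit4 lie higher in every DNP library than in any CON library, and Nr3c1 lies lower.

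DNP versus CON asks what the diabetic pain model did to these transcripts. Sgk1, Mt1 and Mt2 showed the clearest differences: mean levels in DNP were 2.65, 1.70 and 1.83 times those in CON in CPM, the read counts scaled to library size with TMM factors. Ddit4 and Cdkn1a were also higher at a nominal p under 0.05, and Nr3c1 was lower in every DNP library without passing that threshold. Thus 5 of 10 members passed the nominal threshold in edgeR, all higher, where 11.2% of all 18501 tested genes passed and 5.71% did so in that direction. Log2 fold changes were above 0 for 7 of the 10, where 51.4% of all genes were. No member passed the adjusted threshold of 0.05, nor did any gene: the smallest Benjamini-Hochberg adjusted p in edgeR was 0.294, with 2067 genes at an unadjusted p under 0.05. DESeq2 called 280 genes (1.46%), 2 of them members, Sgk1 and Mt1. In counts simulated for this comparison, with edgeR's own estimates of spread and no regional differences, DESeq2 made 57 false calls and edgeR 0. The median log2 fold change of the 10 genes was 0.51, against 0.013 over all genes.

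Sgk1 (chr10:21882184-21999903, plus strand, GRCm38 in GENCODE vM21, as for all positions of genes here) encodes a serum- and glucocorticoid-induced kinase that regulates ion channels and transporters and is also made by myelinating oligodendrocytes. It measured 5.93, 5.62 and 8.68 FPKM in the CON libraries, 25.6, 14.4 and 15.2 in DNP, and 7.19, 8.77 and 14.8 in BAC. Every DNP library stood above every CON library, and DNP replicate 1 was the highest of all. The log2 fold change in DNP versus CON was 1.41 (SE 0.34), with an edgeR adjusted p of 0.294, while DESeq2 gave an adjusted p of 0.021. Without the 3 hindbrain-rich libraries it was 1.08 (edgeR adjusted p = 0.447), and with cerebellum and caudal hindbrain marker scores as covariates it was 0.83 (edgeR adjusted p = 0.671) and no longer passed the nominal threshold. Oligodendrocyte markers, none at 0 in any library, summed to between 307 and 409 FPKM in CON, 523 and 1235 in DNP, and 401 and 1308 in BAC. The 3 highest Sgk1 values, in DNP replicate 1, DNP replicate 3 and BAC replicate 3, were in the 3 libraries with the highest oligodendrocyte sums, 1235, 1001 and 1308 FPKM. The next sum, 987 FPKM in BAC replicate 1, went with 7.19 FPKM of Sgk1, and 523 in DNP replicate 2 with 14.4. The part of oligodendrocyte content in the Sgk1 difference was not tested.

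Mt1 (chr8:94179082-94180327) and Mt2 (chr8:94172664-94173568) encode metallothioneins, small proteins that bind zinc and copper and are induced by glucocorticoids and by metals. Mt1 measured 45.03, 68.8 and 60.1 FPKM in CON, 117 (replicate 1), 87.8 and 98.8 in DNP, and 98.1, 82.6 and 103 in BAC. All 6 diabetic libraries stood above the 3 CON libraries. Its log2 fold change in DNP versus CON was 0.77 (SE 0.18), with an edgeR adjusted p of 0.294, and DESeq2 gave an adjusted p of 0.0195. Mt2 measured 37.2, 62.1 and 56.0 FPKM in CON, 126.5, 81.3 and 83.0 in DNP, and 106, 58.0 and 108 in BAC. DNP did not overlap CON, whereas BAC replicate 2 lay inside the CON range. For Mt2 the log2 fold change in DNP versus CON was 0.87 (SE 0.29, edgeR adjusted p = 0.361). Without the 3 hindbrain-rich libraries the values were 0.63 for Mt1 (edgeR adjusted p = 0.458) and 0.62 for Mt2 (edgeR adjusted p = 0.487), both past the nominal threshold. Mt2 no longer passed it without CON replicate 1 (0.70) or DNP replicate 1 (0.63). With the marker scores as covariates, Mt1 was at 1.21 and Mt2 at 1.29. The Mt1 difference was past the nominal threshold under all 16 alternative settings, from 0.63 to 1.21. Astrocyte markers, whose cells make most metallothionein in brain, were at 0 in no library and summed to 287 to 326 FPKM in CON, 223 to 302 in DNP and 313 to 396 in BAC. Blood markers were higher in all 6 diabetic libraries, with sums of 184.5 to 201 FPKM in CON, 461 to 670 in DNP and 450 to 739 in BAC, and their part in the metallothionein values was not tested. In counts, Mt1 exceeded Mt2 by 2.52 to 3.88 times in every library. Mt2 shares 749 bases with the antisense gene Gm45774, which had 85 to 221 counts, and since the libraries were not strand-specific the reads of the pair cannot be told apart.

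Ddit4 (Redd1, chr10:59949669-59951834, minus strand), an inhibitor of the growth kinase mTORC1 that glucocorticoids and hypoxia induce, measured 16.02, 23.0 and 24.7 FPKM in CON, 36.6, 30.8 and 26.3 in DNP, and 21.1, 25.1 and 30.1 in BAC. DNP stood above CON without overlap, by a log2 fold change of 0.52 (SE 0.21, edgeR adjusted p = 0.422). It missed the nominal threshold without CON replicate 1 (0.37) or 2 (0.55), without DNP replicate 1 (0.39) or 2 (0.52), and without the 3 hindbrain-rich libraries (0.37). Cdkn1a (chr17:29090976-29100727, plus strand), the cell cycle inhibitor p21, measured 3.50, 4.62 and 3.88 FPKM in CON, 6.53, 12.9 and 4.18 in DNP, and 3.60, 5.19 and 4.74 in BAC. Its DNP mean rested on replicate 2, and replicate 3 lay inside the CON range. The log2 fold change was 0.94 (SE 0.38, edgeR adjusted p = 0.418), and 0.37 (edgeR adjusted p = 0.679) without DNP replicate 2. Without any 1 CON library it lay between 0.87 and 1.02 and missed the nominal threshold, as it did without the hindbrain-rich libraries (1.04).

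Nr3c1 (chr18:39410545-39519421, minus strand), the receptor itself, measured 4.58, 4.45 and 7.17 FPKM in CON, 4.21, 3.19 and 4.12 in DNP, and 6.20, 5.06 and 3.42 in BAC. The 3 DNP libraries were below the 3 CON libraries, by a log2 fold change of -0.54 (SE 0.27, edgeR adjusted p = 0.486), and BAC spanned both. Without CON replicate 3, the highest library, the value was -0.28 (edgeR adjusted p = 0.791). Nr3c2, the mineralocorticoid receptor that binds the same hormone with higher affinity, had a log2 fold change of -0.77 (SE 0.39, edgeR adjusted p = 0.494) in the same comparison. The ratio of Nr3c1 to Nr3c2 in FPKM ran from 1.28 to 3.1 over the libraries, with both extremes in CON. In DNP versus CON, 5 of the 10 members did not overlap between groups, where 18.2% of all tested genes did not: 4 higher (9.59% of all) and Nr3c1 lower (8.63% of all).

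Fkbp5 (chr17:28399094-28517527, minus strand), the feedback co-chaperone, measured 2.98, 0.918 and 2.72 FPKM in CON, 3.17, 3.38 and 2.93 in DNP, and 1.27, 3.61 and 2.18 in BAC. The low values were in CON replicate 2, BAC replicate 1 and BAC replicate 3. Those were also the libraries with the highest cerebellum sums, 952, 504 and 174 FPKM, and the lowest cortex marker sums, 12.9, 25.6 and 26.2 FPKM against at least 46.0 elsewhere. The next cerebellum sum, 154 FPKM in CON replicate 3, went with 2.72 FPKM of Fkbp5. Its log2 fold change in DNP versus CON was 0.46 (SE 0.49, edgeR adjusted p = 0.774), and -1.02 (edgeR adjusted p = 0.602) with the marker scores as covariates, so the sign turned. The part of regional content in the Fkbp5 values was not tested. Relative to Fkbp4, the co-chaperone that competes with it, Fkbp5 was 0.017 to 0.138 in FPKM, and CON replicate 2 again was lowest.

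Tsc22d3 (Gilz, chrX:140539528-140600659, minus strand), a leucine zipper protein that mediates anti-inflammatory effects of the hormone, measured 4.99, 7.76 and 7.80 FPKM in CON, 14.5, 6.27 and 8.91 in DNP, and 11.4 (replicate 1), 5.50 and 13.7 in BAC. The 3 highest values were in the 3 hindbrain-rich libraries, and all others were at most 8.91. The same 3 libraries held the 3 highest Mt2 values. The log2 fold change of Tsc22d3 was 0.50 (SE 0.38, edgeR adjusted p = 0.661) in DNP versus CON, and without those libraries it was 0.095. The part of hindbrain tissue in these levels was not tested.

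**Figure D2:**
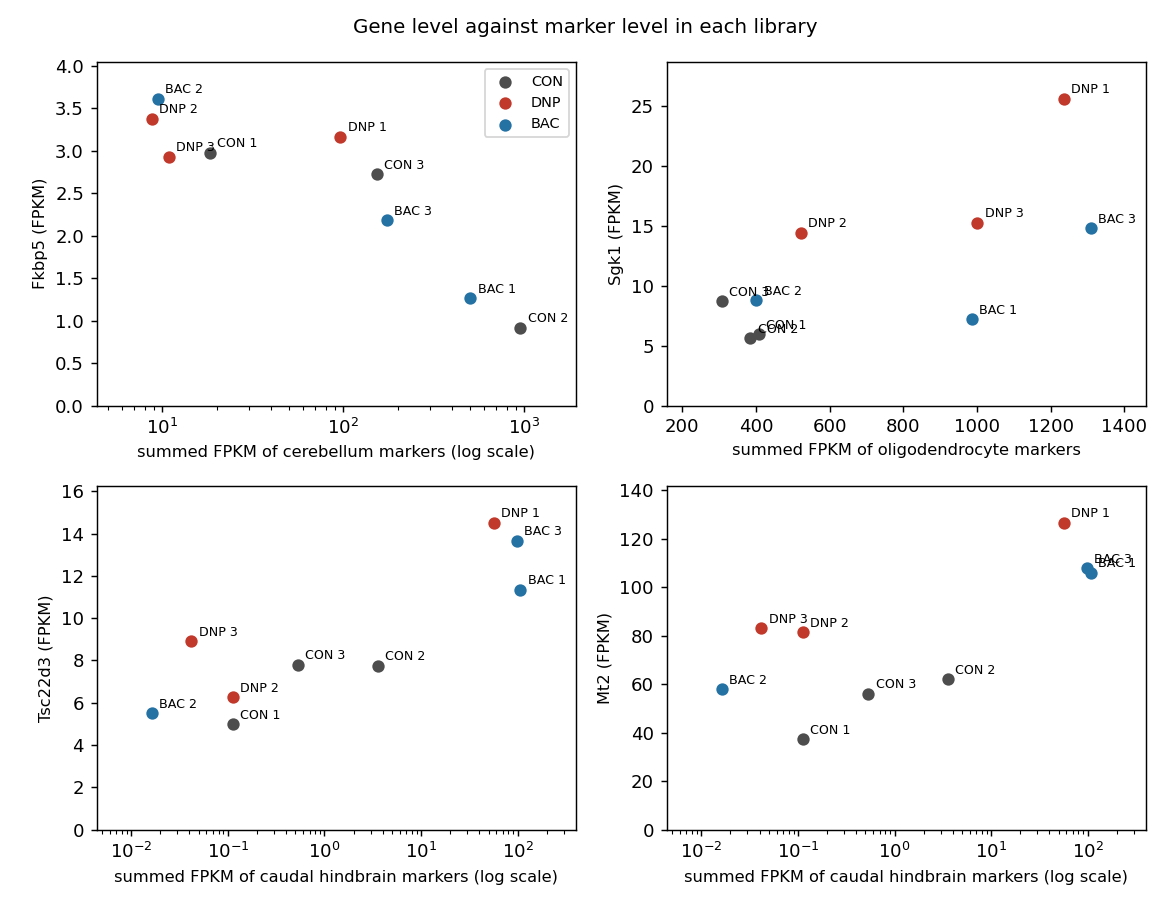
Each point is 1 library, labelled by group and replicate, with the FPKM of 1 gene (y axis, from 0) against the summed FPKM of a marker list (x axis, log scale except for oligodendrocyte). Fkbp5 is lowest in the 3 libraries with the highest cerebellum sums, while CON replicate 3, next at 154, has 2.72 FPKM. Tsc22d3 and Mt2 are highest in the 3 with caudal hindbrain sums of 57.1 or more. The 3 highest Sgk1 values are in the 3 libraries with oligodendrocyte sums of 1001 or more, with BAC replicate 1 low at 987.

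Per1 (chr11:69095217-69109960, plus strand), a core clock gene with a direct response to glucocorticoids, measured 16.2, 13.2 and 22.9 FPKM in CON, 12.2, 19.0 and 14.0 in DNP, and 11.4, 16.8 and 9.04 in BAC. The groups overlapped in every comparison, and the log2 fold changes were -0.26 (SE 0.31, edgeR adjusted p = 0.806) in DNP versus CON and -0.55 (SE 0.31, edgeR adjusted p = 0.674) in BAC versus CON. Zbtb16 (PLZF, chr9:48654297-48836222, minus strand), a zinc finger repressor strongly induced by glucocorticoids in many tissues, measured 7.95, 2.75 and 8.58 FPKM in CON, 6.00, 3.86 and 5.84 in DNP, and 2.39, 2.80 and 3.46 in BAC. All BAC values were below all DNP values, while CON replicate 2 was as low as BAC. Its log2 fold change in DNP versus CON was -0.35 (SE 0.41, edgeR adjusted p = 0.793), and -0.73 (edgeR adjusted p = 0.473) without CON replicate 2 and -1.84 with the marker scores as covariates.

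BAC versus DNP asks what baclofen changed in the diabetic mice, and it shares the DNP libraries with the comparison above. Sgk1, Zbtb16 and Cdkn1a had the largest differences, each lower with baclofen, and Mt1 and Mt2 were close to their DNP levels. Only Sgk1 passed the nominal threshold in edgeR, 1 of 10 members, where 2.37% of all genes did and 1% were lower. Of the 10 log2 fold changes, 2 were above 0 (Nr3c1 and, barely, Tsc22d3), where 48.1% of all genes were, and the median was -0.31 against -0.013 over all genes. No gene passed the adjusted threshold in edgeR (smallest adjusted p 0.998, with 438 genes at an unadjusted p under 0.05), and DESeq2 called 3 (0.00856%), none a member.

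The Sgk1 difference was -0.87 on the log2 scale (SE 0.34, edgeR adjusted p = 0.998). BAC replicate 3, at 147 CPM, came within 1 CPM of the lowest DNP library at 147.5, so the groups were apart in CPM and overlapped in FPKM. Without DNP replicate 1 the value was -0.55 (edgeR adjusted p = 0.689) and no longer passed the nominal threshold, nor did it without BAC replicate 1 (-0.65) or 2 (-0.79). For Zbtb16 it was -0.88 (SE 0.41, edgeR adjusted p = 0.998), and for Cdkn1a -0.82 (SE 0.38, edgeR adjusted p = 0.998), which became -0.26 without DNP replicate 2. Ddit4 (-0.32, SE 0.21), Fkbp5 (-0.43, SE 0.49) and Per1 (-0.30, SE 0.31) overlapped between the groups. The values were -0.12 (SE 0.18) for Mt1 and -0.13 (SE 0.28) for Mt2, and 0.33 (SE 0.27) for Nr3c1. Sgk1 and Zbtb16 were the 2 members whose CPM did not overlap, where 6.79% of all genes did not and 3.41% were lower. In the same comparison 4 of 7 endothelial markers were lower and 6 of 7 meninges markers higher at the nominal threshold, where 1% and 1.37% of all genes were. Endothelial sums were 63.5 to 91.9 FPKM in DNP and 54.3 to 69.7 in BAC, and meningeal sums were 7.84 to 9.57 and 14.0 to 19.5. The part of these cells in the member values was not tested. Without the 3 hindbrain-rich libraries, which leave 1 BAC library, Sgk1 was at -0.72.

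**Figure D3:**
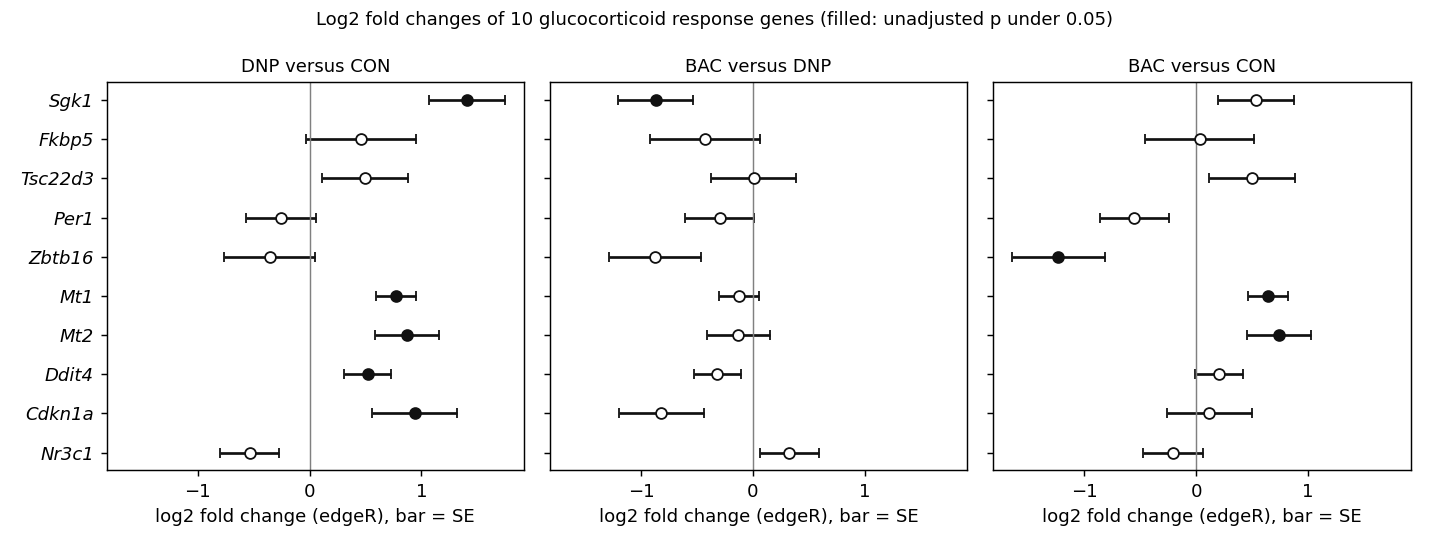
Log2 fold changes from edgeR (x axis) with their SE for the 10 genes in the 3 pairwise comparisons of the groups, filled where the unadjusted p is under 0.05. In DNP versus CON 5 genes are filled, all to the right of 0, in BAC versus DNP only Sgk1, to the left, and in BAC versus CON Mt1 and Mt2 to the right and Zbtb16 to the left.

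BAC versus CON shows what remained different from normal after baclofen. The metallothioneins were still high and Zbtb16 was low: 3 of 10 members passed the nominal threshold in edgeR, where 7.76% of all genes did, and 7 of 10 had a log2 fold change above 0, where 48.2% of all genes had. Mt1 differed by 0.65 (SE 0.18, edgeR adjusted p = 0.628) on the log2 scale, Mt2 by 0.74 (SE 0.28, edgeR adjusted p = 0.628) and Zbtb16 by -1.23 (SE 0.41, edgeR adjusted p = 0.628). Higher and lower genes at that threshold made up 4.46% and 3.3% of all genes. Mt2 missed it without CON replicate 1, BAC replicate 1 or BAC replicate 3 (0.57 to 0.63), and Zbtb16 without CON replicate 1, CON replicate 3 or BAC replicate 1 (-1.10 to -0.98). Sgk1 was at 0.54 (SE 0.34, edgeR adjusted p = 0.702) and Cdkn1a at 0.12 (SE 0.38, edgeR adjusted p = 0.949). Mt1 alone did not overlap between the groups, where 13.4% of all genes did not, 7.21% higher and 6.23% lower. No gene passed the adjusted threshold in edgeR (smallest adjusted p 0.622, 1436 genes at an unadjusted p under 0.05), and DESeq2 called 89 (0.421%), none a member. Without the 3 hindbrain-rich libraries, which leave 1 BAC library whose spread is assumed to be like that of the other groups, no member passed the nominal threshold in edgeR, and Mt1 was at 0.50 (adjusted p = 0.939) and Mt2 at 0.15. With the marker scores as covariates Zbtb16 was at -2.64 and Sgk1 at -0.17.

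With DNP and BAC averaged, the 6 mice with diet and streptozotocin were set against CON. Mt1, Mt2 and Sgk1 were higher and Zbtb16 lower, 4 of 10 members past the nominal threshold in edgeR, where 11.8% of all genes were, 6.42% higher and 5.42% lower. Log2 fold changes were above 0 for 7 of 10, where 48.6% of all genes were. Mt1 was at 0.71 on the log2 scale (SE 0.16, edgeR adjusted p = 0.304), and DESeq2 gave it an adjusted p of 0.0085, the only member among the 303 genes (1.7%) that it called. Mt1 was also the only member with all 6 libraries above CON, where 6.95% of all genes did not overlap and 3.82% were higher. Sgk1 was at 0.97 (SE 0.30, edgeR adjusted p = 0.337), Mt2 at 0.81 (SE 0.25, edgeR adjusted p = 0.339) and Zbtb16 at -0.79 (SE 0.34, edgeR adjusted p = 0.418). Zbtb16 missed the nominal threshold when any 1 library other than CON replicate 2 was left out, with values from -0.87 to -0.54, and Mt2 without CON replicate 1 (0.63). No gene passed in edgeR, with 2190 at an unadjusted p under 0.05 and a smallest adjusted p of 0.209. Without the 3 hindbrain-rich libraries, Mt1 (0.57, adjusted p = 0.514) and Sgk1 (0.72, adjusted p = 0.513) passed the nominal threshold in edgeR, and Mt2 (0.39) did not. With the marker scores as covariates Sgk1 was at 0.33 (edgeR adjusted p = 0.879) and no longer passed it, while Zbtb16 was at -2.24 and Mt1 at 1.08.

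A wider list of 30 other glucocorticoid targets, also chosen with earlier results of these data known, was read beside the members. In DNP versus CON, 11 were higher and 2 lower at the nominal threshold, where 5.71% and 5.46% of all genes were, and the list median was 0.37 on the log2 scale against 0.013 over all genes. Plin4, a lipid droplet coat protein, had the smallest p, at 2.29 (SE 0.47), followed by Hif3a, a subunit related to the hypoxia factors, at 1.05 (SE 0.23), and Nfkbia, the inhibitor of NF-κB, at 0.70 (SE 0.15). Each of these 3 had an edgeR adjusted p of 0.294. Nfkbia measured 7.17, 8.85 and 8.03 FPKM in CON, 12.4, 14.5 and 13.2 in DNP, and 9.56, 8.77 and 11.7 in BAC. Every DNP library stood above every other library for this gene. Against this direction, Klf9, a Krüppel-like factor, was at -0.57 (SE 0.12, edgeR adjusted p = 0.294), and Dusp1, a phosphatase that switches off MAP kinases and also follows neuronal activity, was at -0.79 (SE 0.22, edgeR adjusted p = 0.325). Klf9 measured 53.2 to 56.0 FPKM in CON, 35.5 to 40.6 in DNP and 35.4 to 42.7 in BAC, and Dusp1 measured 10.2 to 15.4, 6.93 to 8.29 and 4.84 to 7.70. Both were lower in all 6 diabetic libraries than in any CON library, as were 3.13% of all genes in CPM.

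**Figure D4:**
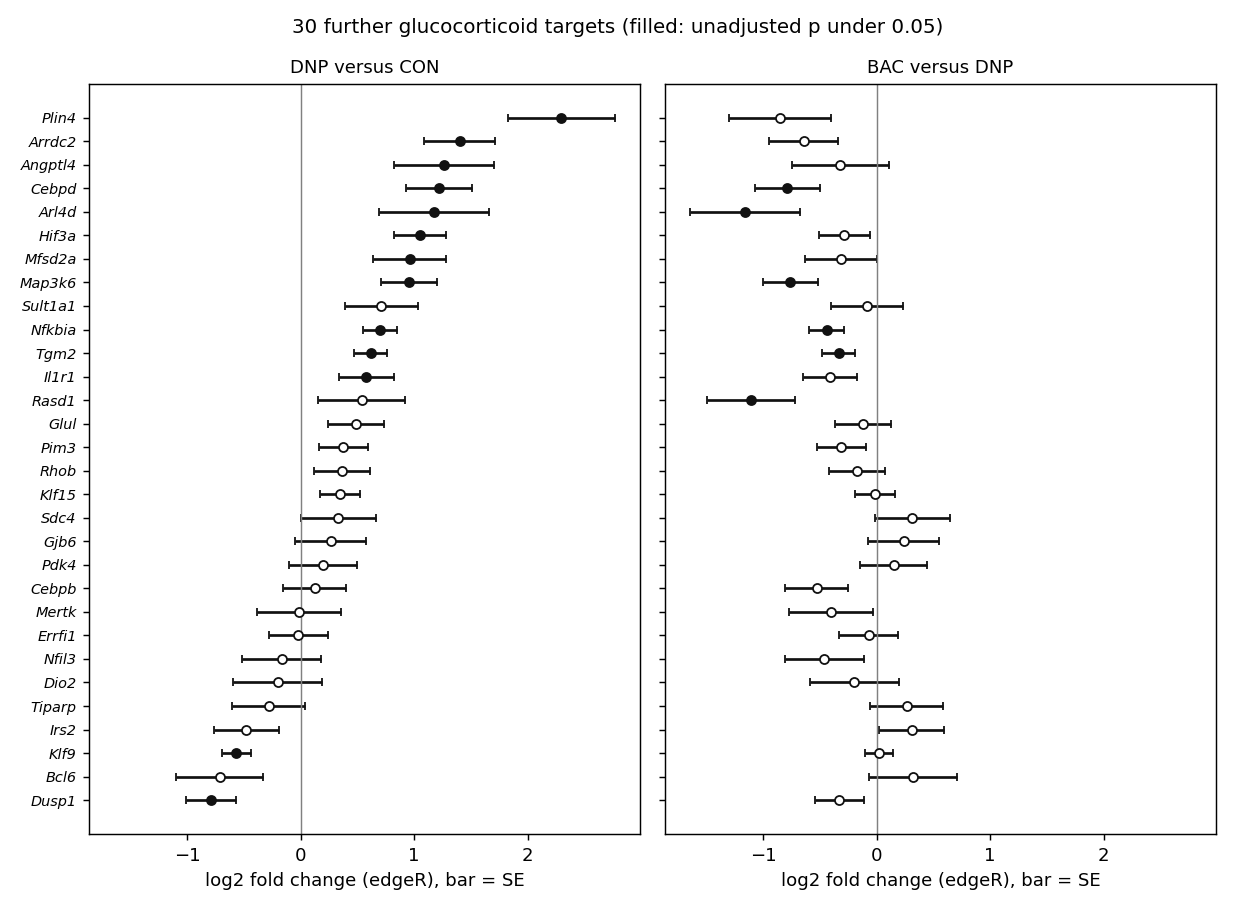
Log2 fold changes from edgeR (x axis) with their SE for the 30 other glucocorticoid targets, ordered by DNP versus CON and filled where the unadjusted p is under 0.05. In DNP versus CON 11 filled points lie above 0 and Klf9 and Dusp1 below, and in BAC versus DNP, which shares the DNP libraries, the 6 filled points lie below 0.

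In BAC versus DNP none of the 30 was higher and 6 were lower at the nominal threshold, where 1.37% and 1% of all genes were. Those with the smallest p were Map3k6, a stress kinase, at -0.76 (SE 0.24), Nfkbia at -0.44 (SE 0.15) and Rasd1, a dexamethasone-induced Ras protein, at -1.10 (SE 0.39), each with an edgeR adjusted p of 0.998. In BAC versus CON 3 were higher, Hif3a (0.77), Plin4 (1.44) and Arrdc2 (0.76), and Klf9 (-0.55) and Dusp1 (-1.11) were lower, where 4.46% and 3.3% of all genes were higher and lower. Without the 3 hindbrain-rich libraries, which leave 1 BAC library, Arrdc2 was at 0.31 in that comparison. In DNP versus CON, 7 were higher and 3 lower without them, where 806 and 1084 of 19503 genes were. In BAC versus DNP, which again rests on 1 BAC library, Map3k6 was at -0.68 and the list median was 0.005 in place of -0.31. Without DNP replicate 1 alone, 7 were higher in DNP versus CON, where 773 of 19007 genes were. Without BAC replicate 1 alone, 1 was lower in BAC versus DNP, where 112 of 18936 genes were. Leaving out DNP replicate 2, DNP replicate 3 or BAC replicate 3 left 4 lower there, beside 132, 97 and 176 of all genes. With the marker scores as covariates, 2 were higher and 1 lower in DNP versus CON, where 929 and 1019 of all 18501 genes were.

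Among 12 genes of the receptor complex, the coregulators Ncoa1 (-0.68, SE 0.13), Ncoa2 (-0.61, SE 0.14) and Ncor1 (-0.68, SE 0.17) were lower in DNP versus CON, each with an edgeR adjusted p of 0.294. Ncoa1 and Ncoa2 are coactivators and Ncor1 a corepressor of nuclear receptors. The chaperones Ptges3 (0.55, SE 0.15, edgeR adjusted p = 0.312) and Hspa8 (0.85, SE 0.28, edgeR adjusted p = 0.363) were higher, and the other 7 genes did not pass the nominal threshold. Over all tested genes, 5.46% were lower and 5.71% higher at that threshold. Ncoa1 measured 13.2 to 13.9 FPKM in CON, 8.55 to 9.01 in DNP and 9.94 to 12.3 in BAC, so the 3 groups did not overlap. In BAC versus DNP it was at 0.33 (SE 0.13, edgeR adjusted p = 0.998). Without the 3 hindbrain-rich libraries, which leave 1 BAC library, it was at 0.43 there. All 5 genes also passed the nominal threshold in DNP versus CON without the 3 hindbrain-rich libraries, where 1890 of 19503 genes did. With the marker scores as covariates 1 of the 12 did, where 1948 of 18501 genes did.

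Of 11 genes of the stress axis and corticosteroid metabolism, 10 were tested. Avp, vasopressin of the hypothalamus, measured 1.84, 0.624 and 0.709 FPKM in CON, 4.39, 1.78 and 2.75 in DNP, and 16.4, 19.4 and 2.24 in BAC. It was at 2.08 (SE 0.77, edgeR adjusted p = 0.998) in BAC versus DNP and 3.48 (SE 0.83, edgeR adjusted p = 0.628) in BAC versus CON, and its BAC level was highest in replicates 1 and 2. Pomc, the precursor of corticotropin, was at 1.54 (SE 0.65, edgeR adjusted p = 0.429) in DNP versus CON with 3.60 FPKM in DNP replicate 1 and at most 1.04 in any other library, and it was at 0.34 without the 3 hindbrain-rich libraries. The drug transporter gene Abcb1a was at -0.45 (SE 0.17, edgeR adjusted p = 0.628) in BAC versus CON. Without those libraries, which leaves 1 BAC library, Abcb1a was at -0.55. Hsd11b1, which regenerates active hormone inside cells, was at -0.40 (SE 0.81) in DNP versus CON and ran from 0.986 to 8.01 FPKM over the libraries.

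Around Per1, none of the 15 other clock genes had a log2 fold change above 0 in DNP versus CON, where 51.4% of all genes did, and the median was -0.34. When the hindbrain-rich libraries were left out, 3 of the 15 were above 0, Npas2 (0.24), Dbp (0.16) and Ciart (0.24), and the median was -0.22. With all libraries only Nr1d1 (Rev-erbα), a clock repressor, passed the nominal threshold, at -0.65 (SE 0.22, edgeR adjusted p = 0.366). At that threshold 5.46% of all genes were lower. In BAC versus CON 4 were lower, where 3.3% of all genes were, led by Nr1d1 (-0.91, SE 0.22), its activator Arntl (-0.68, SE 0.21) and Bhlhe40 (-0.67, SE 0.22), each with an edgeR adjusted p of 0.628, and none was higher. Without the hindbrain-rich libraries, which leave 1 BAC library, Bhlhe40 was at -0.46 there. With the marker scores as covariates 3 were higher and 1 lower there, where 847 and 878 of all 18501 genes were. Nr1d1 measured 59.1 to 70.9 FPKM in CON, 29.0 to 49.9 in DNP and 30.3 to 39.5 in BAC, with no overlap between CON and the diabetic libraries. In CPM, 3.13% of all genes were lower in the diabetic libraries without overlap. Per2 was at -0.36 (SE 0.23, edgeR adjusted p = 0.595) in DNP versus CON. The hour of the day at which each brain was taken is not given in the sources used here, so its part cannot be told apart.

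Beside Mt1 and Mt2, 6 of 7 metal handling genes were tested. The zinc importer Slc39a8 was at 0.61 (SE 0.23, edgeR adjusted p = 0.395) and the metal-sensing factor Mtf1 at -0.30 (SE 0.12, edgeR adjusted p = 0.397) in DNP versus CON, and neither passed the nominal threshold without the 3 hindbrain-rich libraries. The neuronal metallothionein Mt3 measured 79.9, 64.0 and 121 FPKM in CON, 129, 130 and 146 in DNP and 78.1, 123 and 119 in BAC, and was at 0.57 (SE 0.27, edgeR adjusted p = 0.475) in DNP versus CON. Beside Cdkn1a, none of 10 other p53 targets passed the nominal threshold in DNP versus CON, where 11.2% of all genes did. In BAC versus CON Phlda3 (1.34, SE 0.53, edgeR adjusted p = 0.628) passed it, where 7.76% of all genes did. Phlda3 was highest in the 3 hindbrain-rich libraries, with 39.5, 21.4 and 40.6 FPKM against at most 15.7 elsewhere. Without them, which leaves 1 BAC library, Phlda3 was at 0.48 in BAC versus CON. Beside Ddit4, none of 11 ATF4 and hypoxia targets passed the nominal threshold in any of the 4 comparisons, where 2.37% to 11.8% of all genes did.

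Over the 9 libraries and 16782 genes with a mean of at least 1 CPM, likeness to a member was measured as the root-mean-square difference of log2 CPM centred on the gene's mean. For Sgk1, whose own root-mean-square deviation was 0.68, the closest genes were Nrtn (0.26), Arrdc2 (0.28) and Castor1 (0.28). Arrdc2 is itself on the list of 30 targets and was at 1.40 (SE 0.31, edgeR adjusted p = 0.294) in DNP versus CON. For Fkbp5 they were 4930452B06Rik (0.15), Capn3 (0.16) and Bend5 (0.19) against an own deviation of 0.67, and for Mt1 they were D730003I15Rik (0.14), Cd9 (0.14) and Ndufa6 (0.14) against 0.38. Mt2 ranked 52nd for Mt1, at 0.19. The other members ranked from 93 (Ddit4) to 12813 (Nr3c1) for Sgk1, with Tsc22d3 at 1653 and Fkbp5 at 3829. For Fkbp5 the closest member was Per1, at rank 3108.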

How the data were processed

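RNA of 9 samples labelled whole brain, whose levels of regional markers were uneven, was poly(A)-selected and sequenced as paired-end reads of libraries without strand information. The deposited tables hold raw read counts and FPKM per gene. The submitters' processing notes name FastQC 0.11.9, fastp, Bowtie2 2.3.4.1, HISAT2 2.1.0, StringTie 1.3.3b and GRCm38, and the study's methods give StringTie as the tool that quantified genes. The deposited FPKM equal counts per total count and a fixed gene length, and that length can exceed the exon length annotated in GENCODE vM21. Counts were tested in edgeR 4.0.16 (R 4.3.3) by quasi-likelihood, with TMM scaling, filterByExpr (minimum count 10), all 9 libraries in 1 fit and Benjamini-Hochberg adjustment over 18501 genes. DESeq2 1.42.0 and limma 3.58.1 on log2(FPKM + 1) and log2(FPKM + 0.1) were alternatives. Counts were simulated over 18501 genes with 100 changes placed at each of log2 sizes 1 and 2. For DNP versus CON, edgeR recovered 5% and 55% with 0 false calls, and DESeq2 30% and 72% with 57. For the diabetic mice versus CON, edgeR recovered 8% and 66% with 0 false calls, and DESeq2 41% and 79% with 47. The DESeq2 adjusted p-values of Sgk1 and Mt1 carry this limit. The simulated counts were drawn 1 time, independently for each gene, with the spread that edgeR estimated and without regional differences between libraries. They therefore cannot give the rate of false calls of either tool in the real libraries. Total counts were 13107382 to 16008129 per library, and the biological coefficient of variation was 36.5%. The labels give separate mice, so p-values measure the spread between them. Members, lists and tests were chosen with earlier results of these data known. Named genes were all members, up to 3 higher and 3 lower genes of each list and comparison by smallest unadjusted p under 0.05, close partners of members, and the 3 genes most like Fkbp5, Sgk1 and Mt1.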

Additional observations from a re-analysis of the deposited data

How the results depend on the processing

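With 3 mice a group and uneven regional content, single libraries moved the counts. Genes past the adjusted threshold in DNP versus CON, BAC versus DNP, BAC versus CON and the diabetic mice versus CON numbered 0 in edgeR and 280, 3, 89 and 303 in DESeq2, and the 3 were Styx, Bloc1s6 and Mpzl2. Leaving out 1 library gave 0 to 1, 0 to 0, 0 to 1 and 0 to 1 (B3galt1 without CON replicate 2, mt-Ts2 without CON replicate 3, Sesn3 without CON replicate 1, all named after their values were seen). Members at an unadjusted p under 0.05, 5, 1, 3 and 4 in all 9 libraries, ran from 2 to 5 (2 without CON replicate 1, 3 without DNP replicate 1 or 2), 0 to 2 (0 without DNP replicate 1, BAC replicate 1 or BAC replicate 2, 2 without DNP replicate 2 or 3), 1 to 4 (1 without CON replicate 1 or BAC replicate 1) and 2 to 4 (2 without CON replicate 1). Without the 3 hindbrain-rich libraries, an alternative chosen after seeing the data, 3 members passed for DNP against CON, as did 1890 of 19503 genes. That alternative leaves 1 BAC library, so its counts for comparisons with BAC are left out. With the marker scores as covariates, 3 members passed for DNP against CON (1948 of 18501 genes) and 2 for BAC against DNP (651 of 18501). Fitting only the groups compared also gave 2 for BAC against DNP (440 of 18011 genes). With 1 library left out, 18936 to 19069 genes were tested. Of these, 1426 to 2129, 216 to 1484, 604 to 2693 and 1417 to 2803 passed, in the same order of comparisons. In BAC versus DNP, 1 member did not overlap by FPKM and 2 by CPM. The member median kept its sign and moved by less than the spread between libraries under every setting, from 0.41 to 0.72 for DNP against CON and from -0.48 to -0.19 for BAC against DNP.

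Of 660 gene values under alternatives, 24 changed sign, 3 passed the adjusted threshold (all in DESeq2), 10 newly passed an unadjusted p under 0.05 and 49 no longer did, and the cause was not tested. Fkbp5 was at -1.02, -1.19 and -1.11 with covariates in DNP versus CON, BAC versus CON and the diabetic mice, at -0.35 and -0.14 without CON replicate 2 and at -0.46 and -0.0021 without BAC replicate 2 in the last 2 of these, and at 0.24 in BAC versus DNP without the 3 libraries. Over single libraries left out, it ran from -0.46 to 0.34 in BAC versus CON and from -0.14 to 0.55 in the diabetic mice. Tsc22d3 in BAC versus DNP was at -0.44 with covariates, -0.23, -0.067, -0.058 and -0.26 without DNP replicate 2, DNP replicate 3, BAC replicate 1 and BAC replicate 3 (up to 0.39 with another single library left out), and -0.42 without the 3 libraries, which also gave -0.33 in BAC versus CON and -0.12 in the diabetic mice. In BAC versus DNP, Mt2 was at 0.11 without DNP replicate 1 and 0.088 without BAC replicate 2 (lowest with 1 library left out -0.27), and Per1 at 0.063 without the 3 libraries. In BAC versus CON, Sgk1 was at -0.17 and Nr3c1 at 0.090 with covariates, Nr3c1 at 0.052 without CON replicate 3 (lowest with 1 library left out -0.39), and Cdkn1a at -0.027 without BAC replicate 2 (highest with 1 library left out 0.27).

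Deviations of same-numbered libraries correlated between -0.547 and 0.545, and those of differently numbered libraries between -0.69 and 0.575. These deviations also hold the uneven regional content, so they cannot decide whether the replicate numbers pair the libraries. With the replicate block, members at an unadjusted p under 0.05 numbered 4, 1, 2 and 3, beside 1688, 382, 1203 and 1804 of all 18501 genes. The member medians were 0.50, -0.32, 0.15 and 0.39, no gene passed the adjusted threshold, and Tsc22d3 in BAC versus DNP was at -0.010. The setting with only the groups compared has no value of its own for the diabetic mice, since that comparison uses every group.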
